A study of Mus musculus with 10 samples.

Results

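Gm5662, Gm2016, Gm8300 and Gm5039 are 4 Eif1a-like genes of mouse chromosome 12 that are transcribed with the 2-cell (2C) program of embryonic stem cells (ESCs). They were taken from a table of 24370 gene symbols by name, and all 4 were found. They were chosen by their TPM changes across these same groups, known from an earlier look at the data, so their values are given as a description, without a test. The study asked whether Usp17le, which encodes a deubiquitinase, acts on the 2C program through the transcription factor Dux. Polyadenylated RNA was sequenced from mouse ESCs in 5 groups of 2 libraries each. WT cells were cultured without transfection. Usp17le OE cells had been transfected with a Usp17le plasmid and Dux KD cells with a short hairpin RNA against Dux, and both were selected with puromycin. Usp17le OE-Dux KD cells were Usp17le OE cells that then received the hairpin. Dux KD-Usp17le OE cells were Dux KD cells that then received the plasmid. The line is J1 by the labels, whereas the methods give E3, which was grown on feeder cells, for knockdown and overexpression of Usp17l, and J1, grown on gelatin, for other experiments. Cells with an empty plasmid or control hairpin were not analysed here, and transfection and selection therefore enter every contrast with WT. Nothing says whether the libraries of a group came from separate cultures, and errors and p-values cover the spread of these libraries alone, possibly a technical one. Depth was 32188285 to 50457228 counted reads per library.

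Eif1a and its X-linked relative Eif1ax encode eIF1A, a translation initiation factor that binds the small ribosomal subunit, helps to load the initiator tRNA and takes part in the scan for the start codon. Mouse chromosome 12 carries an array of copies with an intact coding sequence of this family. A small share of cultured mouse ESCs passes through a 2C-like state, in which Dux activates genes of the 2-cell embryo such as Zscan4, and Eif1a-like copies are among the genes used as marks of that state. In bulk RNA, fewer 2C-like cells and less RNA per 2C-like cell cannot be told apart.

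The 4 genes lie within 809.7 kb of chromosome 12 (genome build GRCm38, GENCODE annotation). Gm8300 (87514316 to 87518266) and Gm2016 (87874072 to 87877859) are on the plus strand, and Gm5662 (88270640 to 88274500) and Gm5039 (88320122 to 88324026) are on the minus strand. The structure is shared as well. Each gene has 2 exons, a first exon of 186 to 191 bases without coding sequence, and a second exon that holds the whole coding sequence of 432 bases, or 144 residues. GENCODE annotates all 4 as protein-coding, whereas RefSeq annotates Gm5039 as a transcribed pseudogene. With the 4 genes included, 16 genes of the array that GENCODE annotates as coding encode proteins of this family, within 829.3 kb. Of the others, Gm16368, Gm2035, Gm2056, Gm2075, Gm5788 and Gm8332 are pseudogenes by RefSeq. Translated from the annotation, the 4 proteins were 96.5% to 98.6% identical to each other and 92.4% to 94.4% identical to that of Eif1ax. Their coding sequences were 97.0% to 99.1% identical and differed among the 4 genes at 17 of 432 positions. The window of 120 coding bases with the most differences, coding bases 310 to 429, holds 8 of these positions and is printed to show how little sequence separates the copies. Capitals mark bases that differ from Gm5662. The windows lie at chr12:88271560-88271679 for Gm5662, chr12:87876894-87877013 for Gm2016, chr12:87517206-87517325 for Gm8300 and chr12:88321053-88321172 for Gm5039. Eif1ax, on chromosome X, is given for comparison, without coordinates because its window spans more than 1 exon.
Gm5662: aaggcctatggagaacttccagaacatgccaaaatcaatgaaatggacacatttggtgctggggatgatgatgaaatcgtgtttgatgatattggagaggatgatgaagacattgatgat
Gm2016: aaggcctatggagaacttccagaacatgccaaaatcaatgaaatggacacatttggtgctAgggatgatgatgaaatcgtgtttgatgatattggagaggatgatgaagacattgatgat
Gm8300: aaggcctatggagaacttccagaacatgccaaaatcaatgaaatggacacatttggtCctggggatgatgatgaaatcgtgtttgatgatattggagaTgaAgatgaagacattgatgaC
Gm5039: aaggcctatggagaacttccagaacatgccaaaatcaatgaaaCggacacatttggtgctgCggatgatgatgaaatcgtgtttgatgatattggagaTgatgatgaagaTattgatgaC
Eif1ax: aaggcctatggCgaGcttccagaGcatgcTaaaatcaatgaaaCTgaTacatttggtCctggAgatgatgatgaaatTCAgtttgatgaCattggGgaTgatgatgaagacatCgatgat
Eif1ax differed from Gm5662 at 16 of these 120 bases, against 1 for Gm2016, 4 for Gm8300 and 5 for Gm5039.

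Because the authors counted only reads with a single position in the genome, sequence shared between copies lowers the values of a copy by an unknown amount. Windows of 100 bases were therefore looked up in all other annotated transcripts. Of the windows of Gm2016 64.7% were also found in another gene, and of those of Gm5662 58.4%. The share was 10.8% for Gm8300 and 3.8% for Gm5039. With windows of 150 bases it was 43.7% for Gm2016, 40.3% for Gm5662, 3.0% for Gm8300 and 1.0% for Gm5039. With windows of 50 bases the share was 81.3% for Gm2016, 77.9% for Gm5662, 26.6% for Gm8300 and 17.3% for Gm5039. At each length Gm8300 and Gm5039 thus shared less annotated sequence with other genes than Gm2016 and Gm5662 did. Several copies, among them Gm8332, Gm2035 and Gm2022, are annotated over 0.43 kb alone, about their coding sequence. Sequence outside it could not be matched to them, so the shares may be understated, and not equally for each gene. The part of shared sequence in the changes was not tested. Eif1a and Eif1ax had no shared window of 100 bases.

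**Figure D1:**
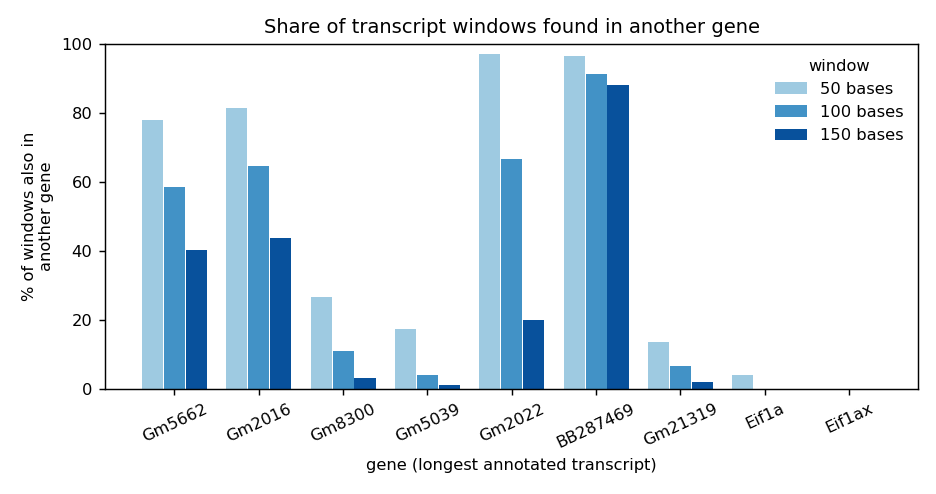
Share of windows of 50, 100 and 150 bases of the longest annotated transcript that are also found in another gene, in percent, for the 4 genes, 3 other genes of the array, Eif1a and Eif1ax. At 100 bases the share is 58.4% for Gm5662 and 64.7% for Gm2016, against 10.8% for Gm8300 and 3.8% for Gm5039. Only annotated transcripts were searched. That of Gm2022, as of several other copies, holds only the coding sequence, so shares may be understated.

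Values are in TPM (reads per length, scaled to the same total in each library), with the SD of 2 libraries. Gm5662 stood at 8.77 and 8.73 TPM for WT, 197 and 198 TPM for Usp17le OE, 1.57 and 1.30 TPM for Dux KD, 15.3 and 18.8 TPM for Usp17le OE-Dux KD, and 5.36 and 6.35 TPM for Dux KD-Usp17le OE. Gm2016 stood at 5.55 and 6.63 TPM for WT, 174 and 211 TPM for Usp17le OE, 0.878 and 1.13 TPM for Dux KD, 18.7 and 16.5 TPM for Usp17le OE-Dux KD, and 3.93 and 4.29 TPM for Dux KD-Usp17le OE. Both copies thus had the same order of groups, with Usp17le OE highest, then Usp17le OE-Dux KD, WT, Dux KD-Usp17le OE and Dux KD. Gm8300 stood at 6.66 and 5.11 TPM for WT, 129 and 152 TPM for Usp17le OE, 0.829 and 0.641 TPM for Dux KD, 14.7 and 15.3 TPM for Usp17le OE-Dux KD, and 3.73 and 3.17 TPM for Dux KD-Usp17le OE. Gm5039 stood at 3.79 and 5.11 TPM for WT, 106 and 108 TPM for Usp17le OE, 0.441 and 0.463 TPM for Dux KD, 8.09 and 9.03 TPM for Usp17le OE-Dux KD, and 2.63 and 2.91 TPM for Dux KD-Usp17le OE. The order of groups was the same for these copies too.

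**Figure D2:**
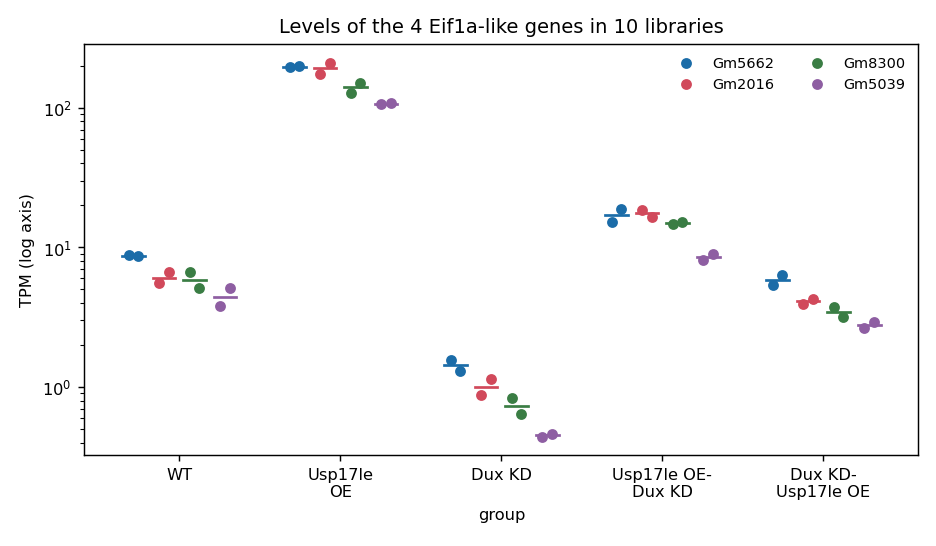
TPM (log axis) of Gm5662, Gm2016, Gm8300 and Gm5039 in the 10 libraries by group; points are libraries and short lines are group means. Usp17le OE stands at 106 to 211 TPM and Dux KD at 0.441 to 1.57 TPM, with the other 3 groups between them.

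The closest neighbours in this order were WT and Dux KD-Usp17le OE, whose means differed 1.48-fold (Gm2016) to 1.71-fold (Gm8300). For Gm5039 that difference, 4.45 ± 0.939 against 2.77 ± 0.200 TPM, was 1.79 times the larger SD, the smallest gap of any neighbours. For Gm5662 it was 4.14 times the larger SD (8.75 ± 0.0253 against 5.86 ± 0.699 TPM). The widest step was from Usp17le OE to Usp17le OE-Dux KD, 9.36-fold (Gm8300) to 12.5-fold (Gm5039). Depth was ample except in Dux KD, where Gm5039 rested on 14 and 19 reads and Gm5662 on 56 and 60, against 3355 to 7372 reads per gene in the Usp17le OE libraries.

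The shares of the copies varied far less than their levels. Their sum went from 3.54 TPM in the lowest Dux KD library to 669 TPM in the highest Usp17le OE library. Gm5662 took 26.9% to 42.3% of that sum over the 10 libraries, Gm2016 22.4% to 32.9%, Gm8300 18.1% to 26.9% and Gm5039 11.9% to 20.0%. Gm5662 stood above Gm8300 and above Gm5039 in 10 of 10 libraries, and above Gm2016 in 8 of 10. The log2 ratio of Gm5662 to Gm5039 ranged from 0.77 in a WT library to 1.83 in a Dux KD library with 14 reads of Gm5039.

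The targeted genes were examined next. Usp17le stood at 1.77 and 0.649 TPM for WT, 28.7 and 35.6 TPM for Usp17le OE, 0.466 and 0.424 TPM for Dux KD, and 11.1 and 10.6 TPM for Usp17le OE-Dux KD. In the libraries that carry the label Dux KD-Usp17le OE it had 0.941 and 1.63 TPM, no more than WT, which goes against the plasmid in their label. Its difference from Dux KD, 1.30 ± 0.391 on the log2 scale, missed the threshold (adjusted p = 0.0655). Every direction drawn from these libraries carries this limit. Dux had 5 and 12 reads for WT, 80 and 75 for Usp17le OE, 4 and 0 for Dux KD, 15 and 16 for Usp17le OE-Dux KD and 6 and 2 for Dux KD-Usp17le OE. Dux reached 0.5 TPM only in Usp17le OE (2.05 and 1.87 TPM) and passed the filter on low values through that group alone. Its changes are therefore given without a test. In Dux KD against WT the log2 change of Dux was -0.98 ± 0.54. On reads recovered from TPM with limma voom it was -3.03, so its size depends on how so few reads are weighed.

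In Usp17le OE against WT, which differ by the plasmid and by transfection and selection, the 4 genes were higher by log2 changes of 4.48 ± 0.124 (Gm5662), 4.96 ± 0.142 (Gm2016), 4.56 ± 0.155 (Gm8300) and 4.58 ± 0.147 (Gm5039; SE, n = 2 per group). Their median corresponds to 23.7-fold. TPM has a fixed total per library, and the median gene itself shifted by 0.26 here. Relative to it the 4 changes were 4.23 to 4.70. They ranked between 17 and 43 from the top of 14706 genes tested. In this comparison 66.4% of all genes tested passed the test, 45.5% as higher and 20.9% as lower.

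In Dux KD against WT, which differ by the hairpin and by transfection and selection, the 4 genes were lower, with log2 changes of -2.53 ± 0.124 (Gm5662), -2.49 ± 0.142 (Gm2016), -2.84 ± 0.155 (Gm8300) and -3.03 ± 0.147 (Gm5039). The median gene shifted by 0.38, so relative to it the changes were -3.40 to -2.87. They ranked between 46 and 85 from the bottom of all genes tested, of which 62.1% passed the test, 10.7% as lower and 51.4% as higher. The copies were thus among the genes with the lowest values relative to WT, while Dux itself rested on 4 and 0 reads in Dux KD and 5 and 12 in WT.

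The hairpin in Usp17le OE cells asks whether the higher levels need Dux. Between Usp17le OE-Dux KD and Usp17le OE, the log2 changes were -3.54 ± 0.124 (Gm5662), -3.44 ± 0.142 (Gm2016), -3.21 ± 0.155 (Gm8300) and -3.63 ± 0.147 (Gm5039), -3.92 to -3.50 relative to the median gene. They ranked between 27 and 56 from the bottom, where 64.3% of genes tested passed, 18.6% as lower and 45.7% as higher. Usp17le itself was lower in the same comparison (-1.55 ± 0.39, adjusted p = 0.00690). The 2 groups thus differ in the level of Usp17le as well as in the hairpin, and the parts of these cannot be told apart. Usp17le was also lower in Dux KD than in WT (-1.12 ± 0.391, adjusted p = 0.0322). The paper names Usp17l as a known target of DUX. Whether the lower Usp17le followed from the hairpin was not tested, as the counts do not separate plasmid from endogenous transcript. The 4 genes did not return to the WT level. Against WT they were higher by 0.95 ± 0.124 (Gm5662), 1.52 ± 0.142 (Gm2016), 1.34 ± 0.155 (Gm8300) and 0.94 ± 0.147 (Gm5039). The median gene shifted by 0.56 in that comparison, which leaves 0.38 to 0.96 relative to it. There 70.5% of genes tested passed, 59.5% as higher and 11.0% as lower.

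In the libraries that carry the label Dux KD-Usp17le OE against Dux KD, the 4 genes were higher by 1.96 ± 0.124 (Gm5662), 1.94 ± 0.142 (Gm2016), 2.09 ± 0.155 (Gm8300) and 2.38 ± 0.147 (Gm5039), or 2.04 to 2.48 relative to the median gene. This was the quietest comparison of the series, with 11.2% of genes tested past the threshold, 2.88% as higher and 8.30% as lower, a count that fell from 1644 to 60 when Dux KD-Usp17le OE replicate 1 was left out. It fell to 138 without Dux KD replicate 2 and to 140 without Dux KD-Usp17le OE replicate 2. Against WT, the same libraries were lower by changes of -0.75 ± 0.155 (Gm8300) to -0.55 ± 0.142 (Gm2016), -1.04 to -0.84 relative to the median gene, where 52.4% of genes tested passed, 7.62% as lower and 44.8% as higher. By their labels the last 2 groups differ in the order of the constructs, but they also differ in Usp17le. The libraries labelled Dux KD-Usp17le OE stood lower than Usp17le OE-Dux KD by changes of -2.09 ± 0.155 (Gm8300) to -1.52 ± 0.124 (Gm5662), beside 45.3% of genes past the threshold, 37.4% as lower and 7.97% as higher. Usp17le differed in the same direction between them (-3.03 ± 0.39, adjusted p = 0.000365), and order and Usp17le level cannot be told apart.

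**Figure D3:**
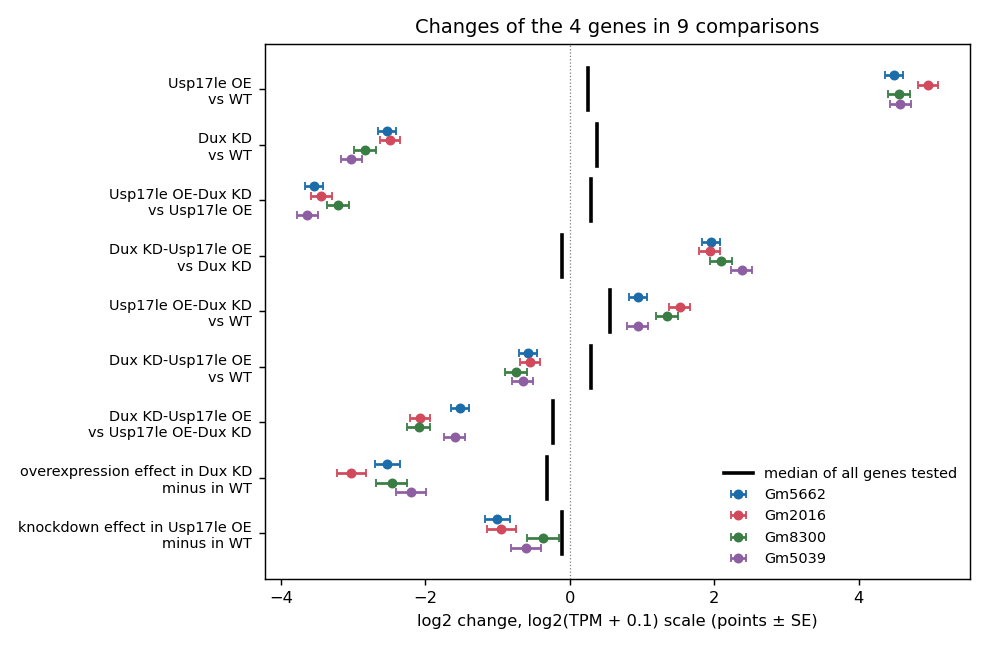
Log2 change (log2(TPM + 0.1) scale) of the 4 genes in 9 comparisons; points are estimates, bars are SEs and black lines mark the median of all genes tested. The 4 genes lie at 4.48 to 4.96 in Usp17le OE against WT and at -3.63 to -3.21 from Usp17le OE to Usp17le OE-Dux KD.

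The differences of effects compare the contrast for 1 construct between cells labelled with and without the other. The overexpression effect was smaller in Dux KD than in WT cells by log2 differences of -3.02 ± 0.200 (Gm2016) to -2.20 ± 0.208 (Gm5039), -2.70 to -1.88 relative to the median gene. In that difference 57.9% of genes tested passed, 42.7% as lower and 15.2% as higher. It includes the libraries labelled Dux KD-Usp17le OE, whose Usp17le level was in the WT range. The knockdown effect was more negative in Usp17le OE than in WT cells by -1.01 ± 0.175 (Gm5662), -0.95 ± 0.200 (Gm2016), -0.37 ± 0.219 (Gm8300) and -0.61 ± 0.208 (Gm5039), -0.89 to -0.26 relative to the median gene, where 43.9% of genes tested passed, 28.2% as lower and 15.8% as higher. The size of this difference depended on the treatment of low values, as its median over the 4 genes, -0.78, was -1.51 with a pseudocount of 1 and -0.54 with limma voom, where that of Gm8300 was -0.13. These contrasts share libraries with the comparisons above and are not separate evidence.

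Other genes of the family were followed through a list of 40 names, of which 11 were in the table and 6 passed the filter on low values. By translated sequence BB287469, Eif1a, Eif1ax, Gm2022, Gm21319 and Gm4027 are relatives of the 4 genes, whereas Eif1ad, Gm10436, Gm16381, Gm2042 and Gm21312 are not. Gm2022, a further copy of the array, stood at 1.28 and 3.60 TPM for WT, 65.9 and 68.8 TPM for Usp17le OE, 0.681 and 0.483 TPM for Dux KD, 5.67 and 5.18 TPM for Usp17le OE-Dux KD, and 2.17 and 1.18 TPM for Dux KD-Usp17le OE. Its levels were far apart between the WT libraries and overlapped there with those of Dux KD-Usp17le OE. Gm2022 was higher in Usp17le OE than in WT (log2 change 4.90 ± 0.456, adjusted p = 3.66e-05) and lower in Usp17le OE-Dux KD than in Usp17le OE (-3.61 ± 0.456, adjusted p = 0.000236). It was lower in Dux KD than in WT (-1.75 ± 0.456, adjusted p = 0.0112), a call lost without Dux KD replicate 2 (adjusted p = 0.0729). In the libraries that carry the label Dux KD-Usp17le OE against Dux KD it did not pass (1.33 ± 0.456, adjusted p = 0.105).

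BB287469 and Gm21319, also in the array, were highest in Usp17le OE and passed the filter through that group alone, so their values are given without a test. BB287469 had 218 and 273 reads in Usp17le OE (3.06 and 3.73 TPM), 12 and 16 for WT, 14 and 14 for Usp17le OE-Dux KD, 9 and 9 for Dux KD-Usp17le OE and 0 in both Dux KD libraries. Gm21319 had 44 and 36 reads in Usp17le OE (1.23 and 0.977 TPM), 0 and 7 in WT and 0 in the other 6 libraries. Against a floor of 3 counts per library, BB287469 was at least 81-fold higher in Usp17le OE than in Dux KD, and Gm21319 at least 13.2-fold. Of the windows of 100 bases of BB287469 91.3% occur in another gene, so most of its length cannot be told apart from other copies by reads of that size. Gm4027, whose coding sequence is identical to that of BB287469, had 0 reads in every library, as had Gm16381 and Gm21312, whereas Gm2042 had 7 reads and Gm10436 18 reads over all libraries.

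Eif1a and Eif1ax, the eIF1A genes outside the array, differed from WT in opposite directions. In Usp17le OE and in Dux KD they did so by less than the 4 genes, whereas in Usp17le OE-Dux KD the changes of Eif1a (0.93 ± 0.0557, adjusted p = 1.99e-08) and Eif1ax (-0.85 ± 0.0559, adjusted p = 4.4e-08) were close in size to the 0.95 of Gm5662. Eif1a stood at 94.2 and 98.6 TPM for WT, 156 and 171 TPM for Usp17le OE, 164 and 172 TPM for Dux KD, 187 and 182 TPM for Usp17le OE-Dux KD, and 148 and 143 TPM for Dux KD-Usp17le OE. Eif1ax stood at 520 and 542 TPM for WT, 403 and 382 TPM for Usp17le OE, 406 and 358 TPM for Dux KD, 294 and 296 TPM for Usp17le OE-Dux KD, and 432 and 437 TPM for Dux KD-Usp17le OE. WT was thus the lowest group for Eif1a and the highest for Eif1ax. Eif1a rose in Usp17le OE (0.76 ± 0.0557, adjusted p = 1.47e-07) and in Dux KD (0.80 ± 0.0557, adjusted p = 1.26e-07) against WT, 0.50 and 0.42 relative to the median gene. Eif1ax fell in both (-0.44 ± 0.0559, adjusted p = 1.95e-05, and -0.48 ± 0.0559, adjusted p = 9.12e-06), -0.69 and -0.85 relative to the median gene. The ratio of Eif1a to Eif1ax within a library does not depend on scaling. It was 0.181 and 0.182 for WT, 0.387 and 0.447 for Usp17le OE, 0.403 and 0.479 for Dux KD, 0.634 and 0.616 for Usp17le OE-Dux KD, and 0.342 and 0.327 for Dux KD-Usp17le OE. From Usp17le OE to Usp17le OE-Dux KD the direction of Eif1a depended on scaling, with 0.18 ± 0.0557 (adjusted p = 0.0147) as deposited and -0.13 (adjusted p = 0.0158) after median-ratio scaling. Without Usp17le OE replicate 1 its adjusted p was 0.128, and without Usp17le OE-Dux KD replicate 1 it was 0.0835. Eif1ad, whose product has an eIF1A domain but is 19.6% to 21.8% identical to the 4, rose in Usp17le OE (0.85 ± 0.0653, adjusted p = 2.23e-07) and in Dux KD (1.06 ± 0.0653, adjusted p = 5e-08) against WT.

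Set beside Eif1a and Eif1ax, the 4 genes made up 3.84% and 3.87% of the summed TPM of these 6 genes in WT, and 0.649% and 0.663% in Dux KD. In Usp17le OE they made up 52.1% and 54.7%, as their sum of 606.5 and 669.0 TPM stood above the 558 and 553 TPM of Eif1a and Eif1ax together. The share was 10.6% and 11.1% for Usp17le OE-Dux KD, with 2.63% and 2.81% for Dux KD-Usp17le OE. These are shares of transcripts, and since reads shared between copies were not counted, the shares of the array are understated by an unknown amount.

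**Figure D4:**
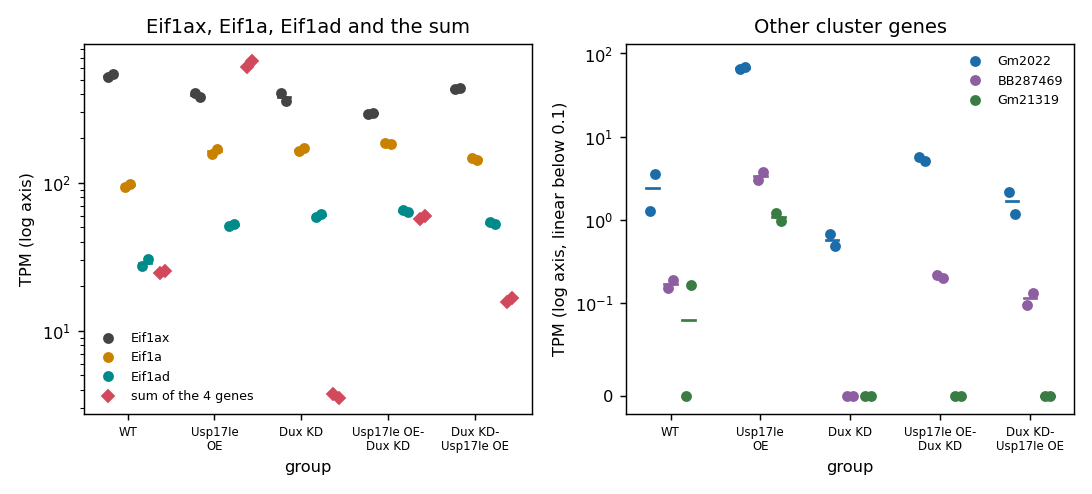
TPM (log axis) by group of Eif1ax, Eif1a, Eif1ad and the sum of the 4 genes (left), and of other copies of the array (right); points are libraries, short lines are group means, and the right axis is linear below 0.1 TPM. The sum of the 4 genes goes from 3.54 to 669 TPM, whereas Eif1a stays between 94.2 and 187 TPM and Eif1ax between 294 and 542 TPM.

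The genes whose profiles were nearest to the mean of the 4 genes were found by the root mean square (RMS) difference of centred log2(TPM + 0.1) over the 10 libraries, which share group means and total scaling. The 4 genes themselves lay at 0.153 to 0.176, against a median of 2.46 for all genes tested. Since they make up that mean, their own distances are small in part by construction and not on equal terms with those of other genes. Next came Zscan4d (0.303), Zscan4a (0.344) and Zscan4f (0.447), of the Zscan4 family of zinc finger genes that marks the 2C-like state. They were followed by Gm13119 (0.450), Arg2 (0.464), which encodes an arginase, Gm4858 (0.514), Tmem92 (0.572), Ctf2 (0.602), Tcstv3 (0.622) and Trim75 (0.654). Gm4858, Ctf2 and Trim75 had 0 TPM in Dux KD, where the added 0.1 sets their profile. Zscan4d averaged 3.01 TPM for WT, 88.2 TPM for Usp17le OE, 0.536 TPM for Dux KD, 11.5 TPM for Usp17le OE-Dux KD and 1.95 TPM for Dux KD-Usp17le OE, the same order of groups as in the 4 genes. Pearson's r of the 10 named genes with the mean profile was 0.969 to 0.992, given as a description. Among other copies Gm2022 lay at 0.509, BB287469 at 0.853 and Gm21319 at 1.46, while Eif1a (2.41) and Eif1ax (2.49) lay near the median of all genes.

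**Figure D5:**
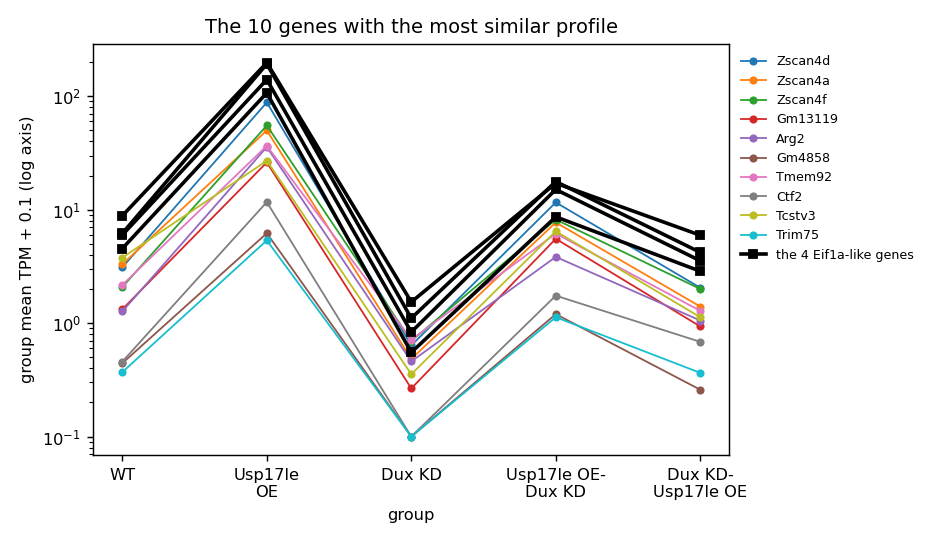
Group means of TPM + 0.1 (log axis) for the 4 genes (black) and the 10 genes with the nearest profiles; lines join groups only to guide the eye. The nearest gene, Zscan4d, lies at an RMS difference of 0.303 from the mean of the 4 genes, against a median of 2.46 for all genes tested.

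The wider lists give the setting. Of 53 other genes of the 2C program, 35 were tested, and 34 rose and 1 fell in Usp17le OE against WT (median 4.07, against 0.26 for all genes), beside 45.5% and 20.9% of all genes tested. The filter admits genes that are high in a single group, so these counts are a description. From Usp17le OE to Usp17le OE-Dux KD 30 of the 35 fell and 1 rose (median -1.97), beside 18.6% and 45.7% of all genes. In Dux KD against WT 20 fell and 3 rose (median -1.46), beside 10.7% and 51.4%, and in the libraries that carry the label Dux KD-Usp17le OE against Dux KD 13 rose and none fell (median 1.00), beside 2.88% and 8.30%. Trim43a, a tripartite motif gene, had the largest change of the list in Usp17le OE against WT (7.11 ± 0.227), likewise given as a description. Of 46 genes of translation initiation 44 were tested, and 14 rose and 17 fell in Usp17le OE against WT (median -0.01), or 6 and 29 after median-ratio scaling, beside 45.5% higher and 20.9% lower among all genes. Eif5, which stimulates GTP hydrolysis by eIF2, rose there by 1.20 ± 0.0646 (adjusted p = 1.03e-08), and Eif2s2, a subunit of eIF2, rose by 1.02 ± 0.0516 (adjusted p = 6.13e-09). Eif4e3, of the cap-binding eIF4E family, fell by 1.30 ± 0.295 on the log2 scale (adjusted p = 0.00185). In Dux KD against WT 30 of the 44 rose and 9 fell, or 18 and 15 after scaling, beside 51.4% higher and 10.7% lower among all genes. From Usp17le OE to Usp17le OE-Dux KD 24 rose and 8 fell, or 17 and 20 after scaling, beside 45.7% and 18.6%. In the libraries that carry the label Dux KD-Usp17le OE against Dux KD none rose and 18 fell, or 4 and 4 after scaling, beside 2.88% and 8.30%.

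Markers of ESCs summed to 10053 to 12560 TPM over the 10 libraries, with all 10 markers detected. Single markers did change within this sum. In Usp17le OE against WT 4 of the 10 rose and 3 fell, beside 45.5% and 20.9% of all genes tested. The largest called changes were rises, of Zfp42 (1.85 ± 0.0469, adjusted p = 1.86e-11), Nanog (1.495 ± 0.0447, adjusted p = 6.99e-11) and Klf4 (1.35 ± 0.0501, adjusted p = 5.03e-10). Markers of fibroblast feeder cells summed to 198 to 202 TPM for WT, 163 to 169 TPM for Usp17le OE, 271 to 282 TPM for Dux KD, 235 to 236 TPM for Usp17le OE-Dux KD and 283 TPM in both Dux KD-Usp17le OE libraries, with Lum and Dcn at 0 in WT and Dux KD. The sum covers genes that moved in opposite ways. In Usp17le OE against WT, of the 6 feeder markers tested 2 rose and 3 fell, with Acta2 (smooth muscle actin) at -4.55 ± 0.0907 (adjusted p = 3.08e-12), Pdgfrb at -1.26 ± 0.129 (adjusted p = 2.72e-06) and Col1a2 at 1.85 ± 0.527 (adjusted p = 0.00795). From Usp17le OE to Usp17le OE-Dux KD 5 of the 6 rose and none fell, Acta2 by 2.09 ± 0.0907 (adjusted p = 2.46e-09), so that Acta2 moved opposite to the 4 genes in both comparisons. Their part in the results was not tested.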

How the data were processed

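RNA of 10 mouse ESC libraries, 2 in each of 5 groups, was sequenced. Per the methods the authors used Trim Galore to trim reads and HISAT2 to place them on mm10, counted uniquely placed reads per gene with featureCounts at default settings (which ignore strand), and deposited TPM values with gene lengths. Reads of overlapping or near-identical genes are therefore uncertain. Whole reads were recovered from TPM and length for 100.0% of values (tolerance 0.01). Depth was 32188285 to 50457228 reads, and floors cover counting error only. Replicates differed by more than sampling noise (chi-square per degree of freedom 4.13 to 9.71).

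The 14706 genes that reached 0.5 TPM in 2 or more libraries were tested with limma 3.58.1 (R 4.3.3, statmod 1.5.0) on log2(TPM + 0.1), which understates changes of low genes. All libraries entered 1 fit with a mean per group and the trend and robust options. It had 5 residual degrees of freedom and gave 7 pairwise comparisons and 2 differences of effects. Two-sided p-values were adjusted over all of these genes by Benjamini-Hochberg and called at 0.05. Named genes were the 4 genes, the listed relatives, Usp17le, Dux, the 10 nearest profiles and at most 3 called genes per list with the largest change. The members and lists were chosen with earlier results of these data known. The table gives 27 gene symbols as dates. Sequences and structures came from GENCODE M21 (GRCm38), read with RefSeq gene types. The promoter sequences at hand held none of the 4 genes, so their promoters are not described. The alternatives tried were other pseudocounts, filters, scaling, fit options, a replicate block, leaving out each library, and limma voom on recovered reads. The test was checked on simulated data with 200 changed genes.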

Additional observations from a re-analysis of the deposited data

Results flagged for a closer look

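The results below are differences between 2 effects, given as values for the listed relatives of the 4 genes. For Gm2022, Eif1a, Eif1ad and Eif1ax they passed the test of the difference itself. The overexpression effect in Dux KD minus that in WT cells was negative for Gm2022 (-3.56, adjusted p = 0.00211), Eif1a (-0.96, adjusted p = 8.03e-07) and Eif1ad (-1.02, adjusted p = 1.76e-06), and positive for Eif1ax (0.63, adjusted p = 2.72e-05). The effect itself was 0.76 in WT and -0.20 in Dux KD cells for Eif1a, and -0.44 and 0.19 for Eif1ax, the last of which did not pass (adjusted p = 0.0502). For Gm21319 the difference was -2.88 and for BB287469 -2.58, given without a test because both genes passed the filter on low values through Usp17le OE alone and had 0 reads in Dux KD. The libraries labelled Dux KD-Usp17le OE, whose Usp17le stood in the WT range, enter all 6 of these differences.

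The knockdown effect differed between Usp17le OE and WT cells for Eif1a (-0.62, adjusted p = 6.13e-05) and Eif1ad (-0.75, adjusted p = 4.87e-05). For BB287469 the value was -2.05, again without a test.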

How the results depend on the processing

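The sign of the change of each of the 4 genes was kept in 500 of 500 alternatives of single genes and comparisons. Many of these could not alter it, as filters, fit options, only the groups compared and the replicate block leave these changes as they are. The others reuse the same libraries. The median of the 4 genes moved as follows. With a pseudocount of 1 it was 4.36 in Usp17le OE against WT, -1.94 for Dux KD against WT, 1.37 for the Dux KD-Usp17le OE label over Dux KD, 1.05 in Usp17le OE-Dux KD relative to WT, -0.52 in Dux KD-Usp17le OE relative to WT, -1.62 for the groups labelled with both constructs, -2.98 for the difference of overexpression effects and -1.51 for the difference of knockdown effects. With 0.01 it was -2.79 in Dux KD against WT and 2.13 for the Dux KD-Usp17le OE label over Dux KD. After median-ratio scaling the values were, in the order Usp17le OE and Dux KD against WT, hairpin added to Usp17le OE cells, the Dux KD-Usp17le OE label over Dux KD, Usp17le OE-Dux KD and then Dux KD-Usp17le OE relative to WT, the comparison of these last groups with each other, and the difference of overexpression effects, 4.31, -3.07, -3.79, 2.11, 0.58, -0.91, -1.57 and -2.15. With limma voom on recovered reads, chosen after seeing the data, they were, in that order with the difference of knockdown effects last, 4.33, -3.21, -3.80, 2.24, 0.60, -0.95, -1.61, -2.04 and -0.54. Leaving out 1 library gave -2.83 to -2.63 in Dux KD against WT, 2.02 to 2.17 for the Dux KD-Usp17le OE label over Dux KD, 1.09 to 1.23 in Usp17le OE-Dux KD relative to WT and -0.67 to -0.51 in Dux KD-Usp17le OE relative to WT.

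For the Dux KD-Usp17le OE label over Dux KD 1 relative was called, against 2 with a pseudocount of 1 or 0.01, a filter of 1 TPM or only the groups compared, 0 without filter or after scaling, 3 with voom and 0 to 2 without 1 library. The genes called there numbered 1644, against 1007 without filter, 791 after scaling, 30 without the trend and robust options and 60 to 1688 without 1 library. For the groups labelled with both constructs Gm2022, Eif1a, Eif1ax and Eif1ad were called, beside 45.3% of all genes tested. After scaling or with voom only Gm2022 and Eif1ax of these were called. For the difference of knockdown effects 3 were called, against 5 with a pseudocount of 1 or no filter and 2 to 4 without 1 library. Directions reversed for Eif1a for the hairpin added to Usp17le OE cells (-0.13 after scaling and with voom), and for BB287469 in the difference of overexpression effects (0.38 with voom) and of knockdown effects (0.24 with a pseudocount of 0.01, 0.99 with voom). The cause was not tested. Replicate numbers did not pair the samples, as correlations of deviations between groups were -0.051 to 0.048. With the replicate block 9778 genes were called in Usp17le OE against WT, against 9765 without, and the call of Gm2022 in Usp17le OE-Dux KD relative to WT was lost (adjusted p = 0.0626). The count-model alternatives (the edgeR and DESeq2 fits) were not run. Depth limits Gm5039 in Dux KD and the copies with few reads.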

Other observations

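Other genes of the interval from Sptlc2 to Adck1, which holds the array, were taken by position after earlier results were known. The table held 21 genes of it, 17 besides the 4, of which 13 passed the filter on low values. Gm1995, a transcribed pseudogene by RefSeq, reached 0.5 TPM only in Usp17le OE and Usp17le OE-Dux KD, so its changes are given without a test. It was higher in Usp17le OE than in WT (log2 change 4.08 ± 0.282) and lower in Usp17le OE-Dux KD than in Usp17le OE (-1.91 ± 0.282). Gm7104, of the same type, passed the filter on low values through Usp17le OE alone, so its values are given without a test. It had 106 and 162 reads in Usp17le OE (1.31 and 1.95 TPM), 10 and 2 in WT and 18 and 32 in Usp17le OE-Dux KD. Gm1995 and Gm7104 lie inside the array. Genes of the interval outside the array had smaller changes in Usp17le OE against WT. Sptlc2 rose by 0.60 ± 0.0618 (adjusted p = 2.68e-06), Adck1 rose by 0.58 (adjusted p = 0.000256), Alkbh1 fell by 0.65 ± 0.0807 on the log2 scale (adjusted p = 1.41e-05), and Snw1 was at -0.05 ± 0.0623 (adjusted p = 0.503).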
